A study of Homo sapiens with 6 samples.

Results

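Eph receptors form the largest family of receptor tyrosine kinases, and ephrins are their ligands. Expression of 10 genes of this system, the receptors EPHA1, EPHA2, EPHA4, EPHB2, EPHB3, EPHB4 and EPHB6 and the ephrins EFNA1, EFNA5 and EFNB2, was examined by RNA-Seq after DAB2IP knockdown. They were found by gene symbol in a table of 58735 genes, in which the whole Eph and ephrin family has 22 members. The 10 genes were chosen by name with earlier results of the same comparison in view, so their differences between the groups are given as a description. Where a member is said to pass a threshold, this only places it in the fit over all genes and is no independent test. MCF10A is an established, nonmalignant breast epithelial cell line of basal character, grown with epidermal growth factor, insulin, hydrocortisone and cholera toxin. The cells were transfected with an siRNA against DAB2IP, a GTPase-activating protein of the Ras family that is described as a tumor suppressor, or with a nontargeting control pool. RNA was collected 48 hours later from 3 siControl and 3 siDAB2IP samples. Knockdown rested on 1 siRNA product in 1 cell line, and the labels do not say whether the replicates were separate cultures, so p-values measure only the spread between these libraries.

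An ephrin on one cell binds an Eph receptor on its neighbor, and signals run in both directions, forward into the receptor-bearing cell and in reverse into the ephrin-bearing cell. Class A ephrins are held in the membrane by a lipid anchor and bind mainly class A receptors, whereas class B ephrins span the membrane and bind mainly class B receptors. In epithelia the system sorts cells, sets boundaries and tunes adhesion, and EPHA2 with its ligand ephrin-A1 is the pair best known from breast epithelial cells.

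The promoters of 4 genes are shown, those of the receptor and of the ephrin with the highest levels in siControl (EPHA2 and EFNA1), of the receptor with the lowest siDAB2IP to siControl ratio (EPHB6) and of the ephrin that was higher in every replicate (EFNB2). The sequences come from RefSeq (GRCh38.p14) and are windows of 300 bases around the annotated start site, mostly upstream of it, printed 5′ to 3′ on the strand of the gene. They lie at chr1:16156020-16156319 on the minus strand for EPHA2, chr1:155127626-155127925 on the plus strand for EFNA1, chr7:142862506-142862805 on the plus strand for EPHB6 and chr13:106535613-106535912 on the minus strand for EFNB2. The EPHB6 start site lies 7695 bases, and that of EFNA1 416 bases, inside the gene as the deposited table bounds it. Capitals mark GC boxes and, in EPHA2, also the cAMP response element.
EPHA2: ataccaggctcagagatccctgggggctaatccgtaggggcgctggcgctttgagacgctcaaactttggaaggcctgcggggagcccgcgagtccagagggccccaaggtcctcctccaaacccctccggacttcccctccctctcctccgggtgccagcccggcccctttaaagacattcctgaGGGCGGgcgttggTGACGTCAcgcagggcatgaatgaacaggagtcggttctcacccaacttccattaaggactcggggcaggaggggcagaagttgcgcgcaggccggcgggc
EFNA1: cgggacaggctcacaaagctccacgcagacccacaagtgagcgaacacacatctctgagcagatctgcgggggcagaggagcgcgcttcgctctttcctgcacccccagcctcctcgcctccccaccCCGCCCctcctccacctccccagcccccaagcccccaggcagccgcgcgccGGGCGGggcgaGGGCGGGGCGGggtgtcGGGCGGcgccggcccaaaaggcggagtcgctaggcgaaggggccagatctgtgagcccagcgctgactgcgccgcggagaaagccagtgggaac
EPHB6: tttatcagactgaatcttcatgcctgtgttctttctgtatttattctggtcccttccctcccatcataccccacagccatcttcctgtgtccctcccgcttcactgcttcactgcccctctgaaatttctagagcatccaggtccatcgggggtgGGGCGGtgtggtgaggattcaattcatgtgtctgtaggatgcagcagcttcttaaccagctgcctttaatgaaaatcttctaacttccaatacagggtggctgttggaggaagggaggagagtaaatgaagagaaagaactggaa
EFNB2: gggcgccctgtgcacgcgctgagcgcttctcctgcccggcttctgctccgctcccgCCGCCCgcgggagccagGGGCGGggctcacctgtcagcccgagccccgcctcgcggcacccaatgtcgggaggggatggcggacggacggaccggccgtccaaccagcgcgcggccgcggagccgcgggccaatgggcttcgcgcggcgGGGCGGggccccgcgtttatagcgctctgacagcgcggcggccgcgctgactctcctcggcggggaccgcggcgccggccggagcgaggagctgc
All 10 genes had such a window, and 6 motifs were searched on both strands. EPHB2 and EPHA4 had a further window each, and the first was used. The GC box GGGCGG was present in 10 of 10 windows, against 44.95% of all 35116 promoter windows in the table. It was not particular to these genes, since 19 of the 20 family genes with a window had it. The windows of the 10 genes had a median G and C content of 70.3%, against 58.7% over all windows. Those of EPHA4 at 43.0% and EPHB6 at 48.0% lay below the median of all windows. The cAMP response element TGACGTCA was present in 1 window, that of EPHA2, with its first base 51 bases before the start site, against 1.85% of all windows. The other 4 motifs had no match in the 10 windows. These were the AP-1 motif TGANTCA, held by 7.71% of all windows, the E-box CACGTG, held by 7.26%, the ETS motif CCGGAAGT, held by 4.14%, and the NF-κB motif, held by 5.91%. The letters of a window describe sequence alone and do not show that a factor binds there.

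Libraries held 16353783 to 21916062 counts, at which the limit that a count of 0 allows was 0.137 to 0.183 CPM (counts scaled to the library total with TMM factors). DAB2IP itself was counted 1655, 2030 and 1318 times in siControl and 487, 462 and 386 times in siDAB2IP, a fall of 1.86 ± 0.13 (SE) on the log2 scale, with an adjusted p of 9.71e-05 by edgeR's quasi-likelihood test with Benjamini-Hochberg adjustment. The siDAB2IP replicate 3 library had 12.8% of its counts on mitochondrial genes, where the other 5 libraries had 9.59% to 10.9%. A list of 8 epithelial markers was taken for basal mammary epithelium, though EPCAM and CDH1 in it are not particular to basal cells. Its summed FPKM (fragments per kilobase of transcript, scaled to the library total) was 2529 to 3168 in siControl and 1343 to 1741 in siDAB2IP. Most of it came from the keratins KRT5, KRT14, KRT17 and KRT6A, which fell at the edgeR threshold, whereas EPCAM, CDH1, TP63 and ITGB4 did not pass. For 4 estrogen receptor-positive luminal markers it was 5.80 to 7.61 and 5.99 to 7.24, with PGR at 0 and ESR1 near 0 in every library, while FOXA1 rose from 1.16 to 2.40 FPKM on average and GATA3, at 5.79 and 4.22 FPKM, did not pass. For 4 fibroblast markers the sum was 1.53 to 1.85 and 2.41 to 3.33, nearly all of it COL1A1, which rose, with COL1A2 and PDGFRA near 0 and PDGFRB at 0.133 and 0.0859 FPKM on average. For 4 endothelial markers it was 1.57 to 2.31 and 1.21 to 1.64. Of the leukocyte markers, CD14 was at 18.8 to 36.7 FPKM in siControl and 25.9 to 40.5 FPKM in siDAB2IP, and CD3E was at 0 in every library. In bulk RNA, fewer cells of a type and less RNA per cell cannot be told apart, and the part of these markers in the results that follow was not tested.

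MCF10A cells carried transcripts of few of the 14 receptors at high level. Per length of transcript, EPHA2 was the most abundant receptor in siControl with a mean level of 67.8 FPKM ± 2.30 (SD, n = 3). EPHB4, the receptor best known for binding ephrin-B2, followed at 48.9 FPKM ± 2.77 and EPHB3, a class B receptor of epithelial boundaries, at 28.4 FPKM ± 0.243. A step down, EPHA1 stood at 4.55 FPKM ± 0.990, ahead of EPHB6 at 2.16 ± 0.258, EPHB2 at 1.81 ± 0.378 and EPHA4 at 0.558 ± 0.0312. In this order only the neighbors EPHB6 and EPHB2 had overlapping FPKM ranges. The 7 receptors outside the 10 genes all had a mean siControl level at or below 0.145 FPKM, and EPHA7 had 0 counts in every library.

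The ephrins were spread more evenly. EFNA1, the class A ephrin that binds EPHA2, had a mean siControl level of 62.9 FPKM ± 7.52, and its range overlapped that of the class B ephrin EFNB1 at 59.2 FPKM. EFNB2 at 16.1 FPKM ± 4.10, EFNA4 at 12.9 FPKM and EFNA5 at 12.04 FPKM ± 0.534 formed a second tier in which each overlapped the next. EFNB3 at 3.58 FPKM and EFNA3 at 2.67 FPKM came after them without overlap, and EFNA2 was near 0.

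**Figure D1:**
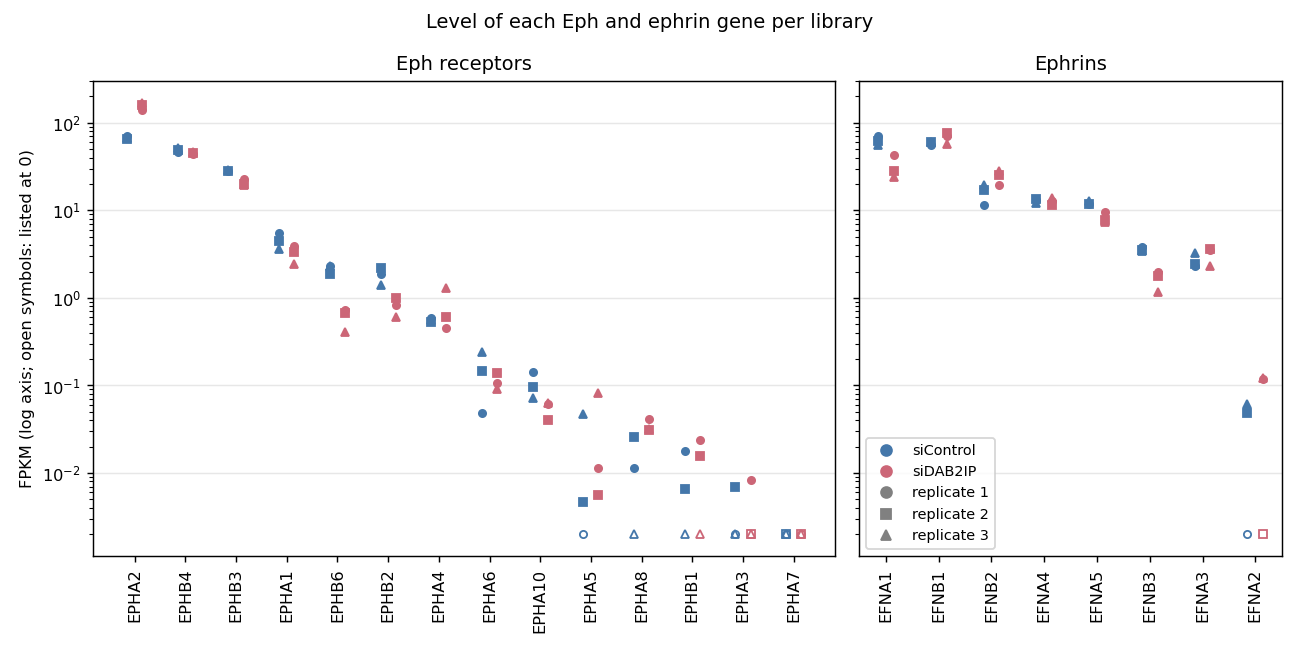
Level of the 14 Eph receptors and 8 ephrins in FPKM on a log axis, in the 3 siControl (blue) and 3 siDAB2IP (red) libraries, with genes ordered by mean siControl level and a symbol for each replicate. EPHA2 leads the receptors in both groups, whereas by mean level EFNA1 leads the ephrins in siControl, overlapping EFNB1, and EFNB1 leads in siDAB2IP.

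Of the 10 genes, all of which passed the filter on low counts, 1 was higher and 5 were lower in siDAB2IP at an adjusted p under 0.05 in the edgeR fit over 15430 genes, and 4 did not pass. Over all genes tested, 6.55% were higher and 7.65% were lower by the same rule. For 6 of the 10 genes, 1 higher and 5 lower in siDAB2IP, no library of either group lay within the range of the other, as was so for 35.9% of all genes tested. Because the genes were chosen with this comparison in view, nothing is read from these counts. Taken over the 10 genes, the median difference on the log2 scale, siDAB2IP over siControl, was -0.46, and it was 0.01 over all genes tested. With the replicate number as a block, 2 of the 10 were higher and 6 lower, the additions being EFNB2 and EPHA1.

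EPHA2 was the member that was higher. EPHA2 (ENSG00000142627) lies on chromosome 1 at 16124337 to 16156087 (hg38, minus strand). Its expression was 295, 275 and 284 CPM in the siControl replicates 1 to 3 and 589, 675 and 716 CPM in the siDAB2IP replicates 1 to 3. Every siDAB2IP library was far above every siControl library, and the siControl libraries lay close together. The mean rose from 285 CPM ± 10.3 (SD, n = 3) to 660 CPM ± 64.6, a log2 fold change of 1.21 ± 0.11 (SE) or 2.32-fold. The siDAB2IP to siControl ratio of CPM was 1.997, 2.46 and 2.52 in replicates 1, 2 and 3. An RNA gene on the opposite strand overlaps EPHA2 but shares 0 exonic bases with it, and it had at most 19 counts in any library.

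The other class A receptors did not pass. EPHA1, the receptor after which the family is named, had 26.7, 21.4 and 17.2 CPM in siControl and 18.7, 16.2 and 11.8 CPM in siDAB2IP, a log2 fold change of -0.48 ± 0.20. The groups overlapped through siControl replicate 3, which was below siDAB2IP replicate 1. Within each replicate number EPHA1 was lower in siDAB2IP, with CPM ratios of 0.700, 0.760 and 0.688, and with the replicate block it passed the threshold at a log2 fold change of -0.48. The gene shares 82 exonic bases, 1.73% of its exons, with ZYX on the opposite strand.

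EPHA4, a receptor that binds ephrins of both classes, was weakly expressed. It had 4.49, 3.99 and 4.29 CPM in siControl and 3.50, 4.597 and 9.91 CPM in siDAB2IP, a log2 fold change of 0.50 ± 0.34. The siDAB2IP libraries lay on both sides of the siControl range, and replicate 3 of siDAB2IP was far above the other 5 libraries. Without that library, which also had the highest mitochondrial share, the log2 fold change was -0.07. EPHA4 shares 353 exonic bases, 4.67% of its exons, with an RNA gene that had at most 3 counts in any library.

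Among the 4 class B receptors, 3 were lower at the threshold and all 4 had a negative log2 fold change. EPHB6, a receptor whose kinase domain lacks catalytic activity, had the lowest ratio. EPHB6 (ENSG00000106123) lies on chromosome 7 at 142855061 to 142871094 (hg38, plus strand). Its expression was 12.5, 9.98 and 12.3 CPM in siControl and 3.89, 3.66 and 2.20 CPM in siDAB2IP, and the groups were widely apart. The log2 fold change was -1.83 ± 0.23. These values rest on 201 to 215 counts in siControl and 38 to 69 counts in siDAB2IP.

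EPHB2, which in the gut and elsewhere positions cells through B ephrins, had 23.5, 27.3 and 17.9 CPM in siControl and 10.5, 12.7 and 7.59 CPM in siDAB2IP. No siDAB2IP library reached the siControl range, although each group spread widely. The log2 fold change was -1.16 ± 0.21, and the ratios within replicate numbers were nearly equal at 0.449, 0.465 and 0.424. The third replicate was the lowest of its group in both arms, so part of the spread within the groups was shared by libraries of the same number.

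EPHB3 was the steadiest of the 10 genes among controls, at 129, 130 and 131 CPM, against 105, 92.0 and 88.8 CPM in siDAB2IP. The groups were apart and the log2 fold change was modest, -0.45 ± 0.10. Without siControl replicate 2 it was -0.46 and no longer passed the threshold.

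EPHB4 had 302, 314 and 337 CPM in siControl and 285, 292 and 303 CPM in siDAB2IP. The groups overlapped, since siDAB2IP replicate 3 was above siControl replicate 1, and the log2 fold change was -0.11 ± 0.10. The ratio within replicate numbers was below 1 each time, at 0.945, 0.930 and 0.899. EPHB4 shares 69 exonic bases, 1.07% of its exons, with SLC12A9 on the opposite strand.

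**Figure D2:**
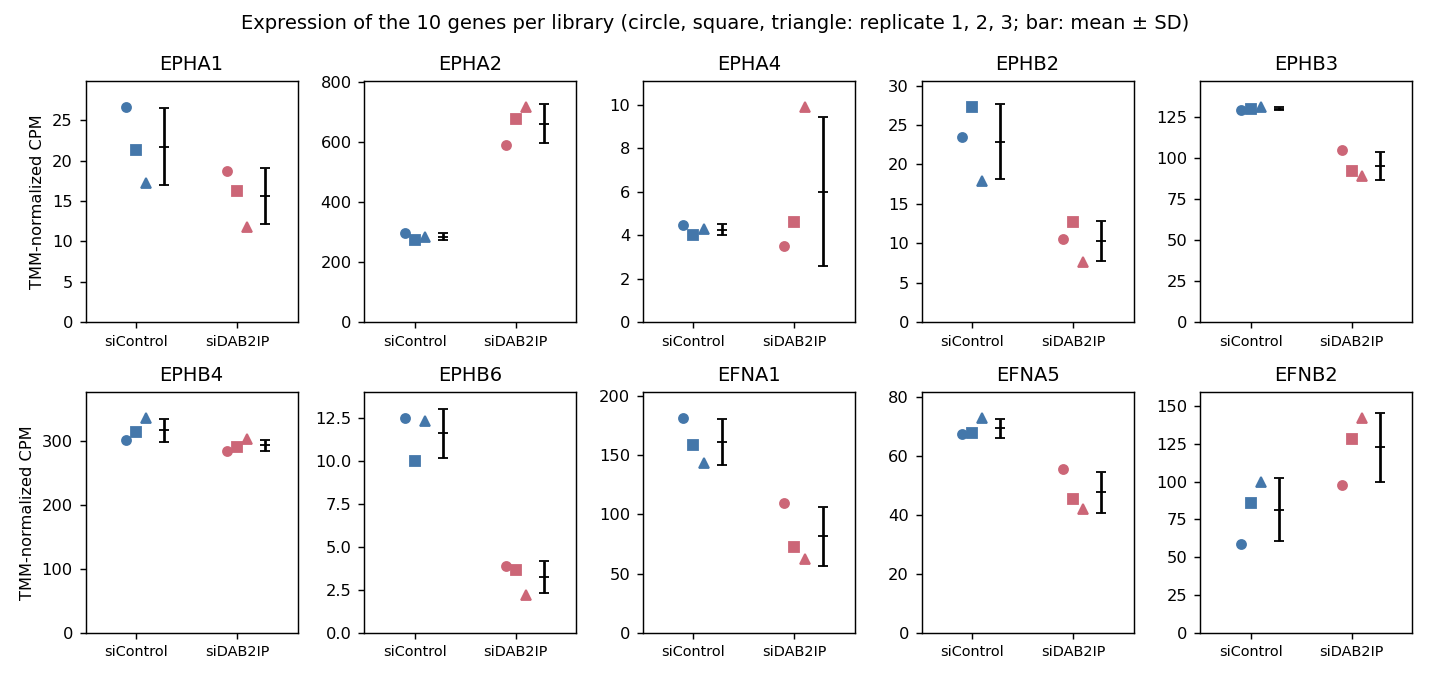
TMM-normalized CPM of the 10 genes in each library, with siControl in blue, siDAB2IP in red, a symbol for each replicate, and black bars for the mean ± SD of 3 libraries. The groups stand apart for EPHA2, EPHB2, EPHB3, EPHB6, EFNA1 and EFNA5 and overlap for the other 4 genes.

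Both class A ephrins among the 10 genes were lower. EFNA1 (ENSG00000169242) lies on chromosome 1 at 155127460 to 155134857 (hg38, plus strand) and had 182, 159 and 143 CPM in siControl. In siDAB2IP it had 110, 72.3 and 62.5 CPM. Every siDAB2IP library was below every siControl library, and within both groups replicate 1 was the highest and replicate 3 the lowest. The mean went from 161 CPM ± 19.4 to 81.5 CPM ± 25.0, a log2 fold change of -0.98 ± 0.19, with ratios within replicate numbers of 0.604, 0.456 and 0.436.

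EFNA5, which besides class A receptors also binds EPHB2, had 67.4, 67.6 and 72.9 CPM in siControl and 55.3, 45.2 and 42.1 CPM in siDAB2IP. The groups were apart, with siDAB2IP replicate 1 nearest to the siControl libraries. The log2 fold change was -0.54 ± 0.12. It was -0.58 without siControl replicate 2 and -0.52 without siControl replicate 3, and in either case it no longer passed the threshold.

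EFNB2, the ligand of EPHB4 known from vessel and epithelial boundaries, was the only one of the 3 ephrins with a positive difference. Its expression was 58.8, 85.9 and 99.5 CPM in siControl and 97.8, 128 and 142 CPM in siDAB2IP. The groups met at one point, where siControl replicate 3 was slightly above siDAB2IP replicate 1. Replicate 1 was the lowest and replicate 3 the highest of both groups, and within replicate numbers the ratio was 1.67, 1.49 and 1.43. The log2 fold change was 0.59 ± 0.19 and did not pass the threshold. With the replicate block it was 0.61 and passed, and it also passed without siDAB2IP replicate 1, at 0.73. Without siControl replicate 1 it was 0.38 and did not pass. Of 15 alternative fits, 4 put EFNB2 past the threshold. The gene shares 1313 exonic bases, 26.2% of its exons, with an RNA gene on the opposite strand that had 5 to 19 counts per library, against 943 to 2456 counts for EFNB2.

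**Figure D3:**
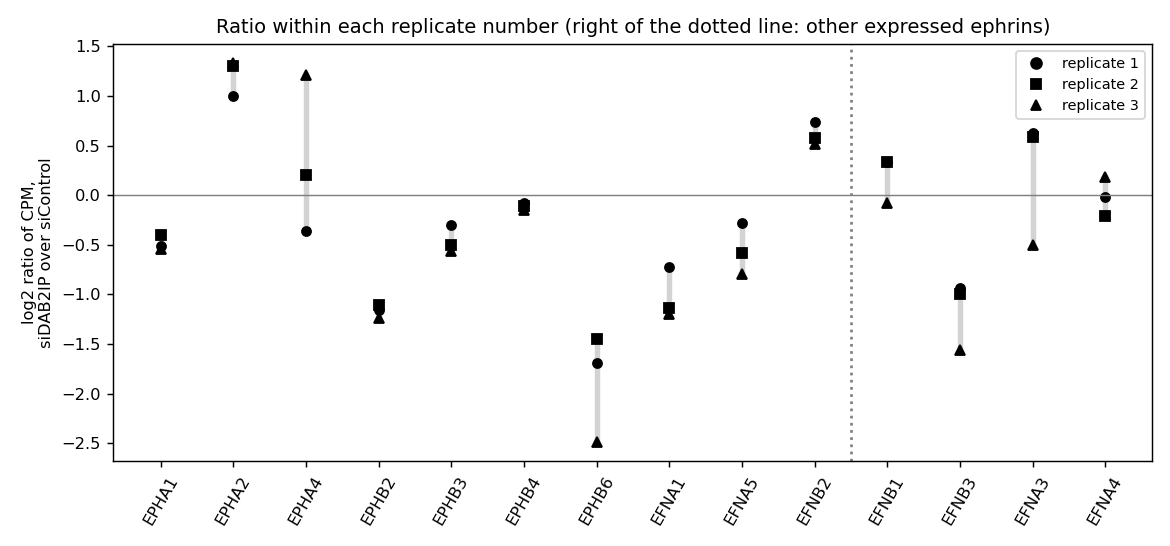
The log2 ratio of CPM, siDAB2IP over siControl, within replicate numbers 1 to 3 for the 10 genes and, right of the dotted line, 4 other expressed ephrins, with a grey bar over the range. EFNB2 was above 0 in all 3 replicates and EPHA1 below 0 in all 3, whereas EPHA4, EFNA3, EFNA4 and EFNB1 had ratios on both sides of 0.

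In the rest of the family, 6 of 12 genes passed the filter on low counts. EFNB3, a class B ephrin, was the only one of them past the threshold. It had 12.3, 11.5 and 11.1 CPM in siControl and 6.43, 5.76 and 3.77 CPM in siDAB2IP, without overlap, and a log2 fold change of -1.13 ± 0.20. This difference was opposite in sign to those of the other class B ephrins, EFNB1 and EFNB2. EFNB1 had 189, 202 and 203 CPM in siControl and 239, 255 and 192 CPM in siDAB2IP, with siDAB2IP replicate 3 inside the control range. Its log2 fold change was 0.21 ± 0.12 and did not pass. Over 15 alternative fits it ranged from 0.12 to 0.32, and it passed the threshold in 1, without siDAB2IP replicate 3, at 0.32. Log2 fold changes that did not pass were 0.25 ± 0.24 for EFNA3, -0.01 ± 0.13 for EFNA4, -0.37 ± 0.51 for EPHA6 and -0.89 ± 0.43 for EPHA10. EPHA3, EPHA5, EPHA7, EPHA8, EPHB1 and EFNA2 had at most 14 counts in any library and were not tested.

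Some of these genes are neighbors on a chromosome. EFNA4, EFNA3 and EFNA1 are consecutive on chromosome 1, with gaps of 9.32 kb and 39.9 kb and no other tested gene between them. Of these 3 class A ephrins, only EFNA1 was lower at the threshold. The levels of EFNA3 and EFNA4 are uncertain, since both share exons with a second gene on the same strand. EPHB6 and EPHA1 lie 519 kb apart on chromosome 7, with 6 tested genes between them, and only EPHB6 of this pair was lower at the threshold without the block.

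The make-up of the receptor transcripts was then compared by adding the FPKM of all family members in each library. EPHA2 made up 45.2%, 43.2% and 43.2% of the summed receptor FPKM in siControl and 65.8%, 69.4% and 70.5% in siDAB2IP. The groups were far apart, at means of 43.9% ± 1.14 and 68.6% ± 2.49 (SD, n = 3). Over the same libraries the share of EPHB4 was 31.7% ± 1.67 in siControl and 19.8% ± 0.712 in siDAB2IP, beside its own log2 fold change of -0.11, and that of EPHB3 was 18.4% ± 0.326 and 9.14% ± 1.41. Summed class A receptors had 73.2 FPKM ± 2.97 in siControl and 161 FPKM ± 14.8 in siDAB2IP, whereas summed class B receptors had 81.4 FPKM ± 2.74 and 67.3 FPKM ± 0.979. The class with the higher summed level was therefore class B in siControl and class A in siDAB2IP. EPHA2 alone had 67.8 and 157 FPKM of the class A sums. Of the other class A receptors tested, EPHA4 had a positive log2 fold change and EPHA1, EPHA6 and EPHA10 negative ones. None of them passed the threshold in the main fit.

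The summed ephrins went the other way by class. Summed class A ephrins had 90.5 FPKM ± 6.89 in siControl and 56.0 FPKM ± 11.4 in siDAB2IP, whereas summed class B ephrins had 78.9 FPKM ± 6.24 and 94.1 FPKM ± 8.43. The genes of a class did not all differ alike. In class A, EFNA1 and EFNA5 were lower at the threshold, and EFNA3 and EFNA4 did not pass. In class B, EFNB1 and EFNB2 did not pass, and EFNB3 was lower at the threshold. EFNA1 made up 37.1% ± 4.29 of the summed ephrin FPKM in siControl and 21.0% ± 4.81 in siDAB2IP. The most abundant receptor and its ligand were at similar levels in siControl, where the ratio of EPHA2 FPKM to EFNA1 FPKM was 0.991, 1.06 and 1.21. In siDAB2IP the same ratio was 3.28, 5.70 and 6.99, without overlap. The ratio of all receptors to all ephrins was 0.912 ± 0.0217 in siControl and 1.54 ± 0.239 in siDAB2IP. These sums and ratios use the values that the choice of genes used and were not tested, and all are transcript levels, not protein.

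**Figure D4:**
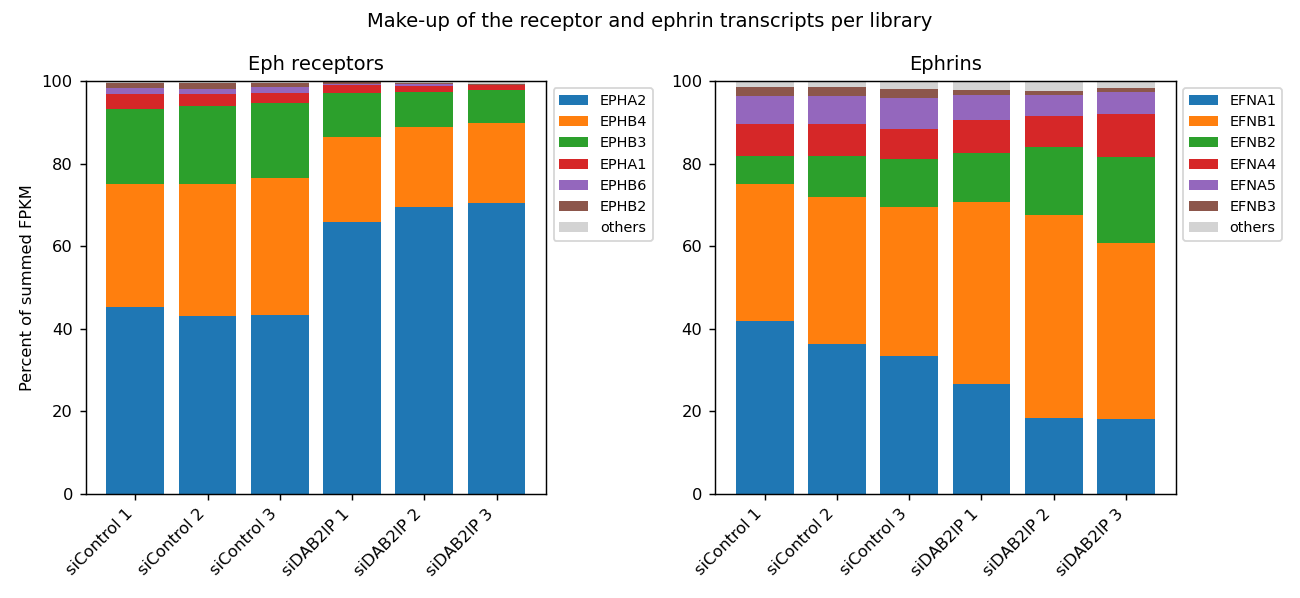
Percent of the summed FPKM of the 14 Eph receptors (left) and the 8 ephrins (right) in each library, with the 6 genes of highest siControl level in color and the others in grey. The EPHA2 share is 43.2% to 45.2% in the siControl bars and 65.8% to 70.5% in the siDAB2IP bars.

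In siDAB2IP, EPHA2 had a mean level of 157 FPKM ± 15.1, ahead of EPHB4 at 45.1, EPHB3 at 20.8 and EPHA1 at 3.26 FPKM, each without overlap with the next. EPHB2 at 0.812 FPKM, EPHA4 at 0.786 FPKM and EPHB6 at 0.604 FPKM could not be ordered, since the ranges of neighbors overlapped. EFNB1 led the ephrins at 68.3 FPKM, ahead of EFNA1 at 31.8 FPKM without overlap, and the range of EFNA1 overlapped that of EFNB2 at 24.2 FPKM.

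The genes that act around the receptors and ephrins were taken from a list of 60 genes by role, of which 55 passed the filter on low counts. The list was made with earlier results of these data known, though without the values of its genes in view. By edgeR's quasi-likelihood test with Benjamini-Hochberg adjustment over all genes, 2 rose, 10 fell and 43 did not pass, which is 3.64% and 18.2% of those tested, beside 6.55% and 7.65% of all genes. Their median log2 fold change was -0.13, and for 29 of the 55 both groups were fully apart, beside 35.9% of all genes tested. With the replicate block 5 rose and 17 fell. Without siDAB2IP replicate 3, 6 rose and 12 fell. Without siControl replicates 1, 2 and 3 in turn, 1, 0 and 0 rose and 5, 5 and 6 fell, and without siDAB2IP replicate 1, 0 rose and 7 fell. Where 0 rose, 2, 4 and 4 genes were higher at an unadjusted p under 0.05, for siControl replicates 2 and 3 and siDAB2IP replicate 1 left out. Shares over all genes were not counted for the block or these refits, so their counts cannot be set against such shares.

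Partners of reverse signaling, which bind the tails of class B ephrins, held the list's smallest p-value. SDCBP, the PDZ adaptor syntenin-1, had 326, 351 and 310 CPM in siControl and 179, 173 and 147 CPM in siDAB2IP. The groups were widely apart, and SDCBP fell by 0.98 ± 0.11 on the log2 scale (edgeR adjusted p = 0.00109). GRIP1, another PDZ adaptor, fell by 0.96 ± 0.18 (edgeR adjusted p = 0.00773). PICK1, a PDZ protein of the same role, rose by 0.62 ± 0.15 (edgeR adjusted p = 0.0232), from 43.8 CPM ± 9.02 to 67.3 CPM ± 6.997. PTPN13, RGS3 and PARD6B did not pass.

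Next to the receptors, 3 of 17 adaptors and phosphatases fell and the other 14 did not pass. PIK3R1, the regulatory subunit of phosphatidylinositol 3-kinase, went from 212 CPM ± 16.7 to 134 CPM ± 13.8, and fell by 0.66 ± 0.11 on the log2 scale (edgeR adjusted p = 0.00541). PTPN1, a phosphatase that acts on Eph receptors, fell by 0.47 ± 0.10 (edgeR adjusted p = 0.0168), and the adaptor GRB10 fell by 0.50 ± 0.12 (edgeR adjusted p = 0.0253). The other adaptors included NCK1, with a log2 fold change of -0.41 ± 0.17, and GRB2, with 0.31 ± 0.10, neither past the threshold. At an unadjusted p under 0.05 in the edgeR fit, 4 of the 17 were higher and 6 were lower. By the same rule, 2238 of all 15430 genes tested were higher and 2398 were lower.

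Of 7 tyrosine kinases that work beside the receptors, SRC rose and 6 did not pass. SRC had 56.5, 51.9 and 57.7 CPM in siControl and 71.4, 69.0 and 77.2 CPM in siDAB2IP, with no overlap. It rose by 0.39 ± 0.10 on the log2 scale (edgeR adjusted p = 0.0241). The related kinases YES1, FYN and LYN had log2 fold changes of -0.55 ± 0.17, -0.05 ± 0.28 and -0.24 ± 0.11 and did not pass.

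Of 5 genes of shedding and turnover, 2 fell. CBL, a ubiquitin ligase that marks activated receptors for degradation, fell by 0.53 ± 0.13 (edgeR adjusted p = 0.0235), and MMP14, a membrane protease that cleaves EPHA2, fell by 0.50 ± 0.11 (edgeR adjusted p = 0.0179). ADAM10, a protease that sheds ephrins, had 264 CPM ± 17.7 in siControl and 268 CPM ± 26.3 in siDAB2IP and did not pass. CBL shares 4.34% of its exons with MCAM on the opposite strand, which rose by 0.85 on the log2 scale (edgeR adjusted p = 0.00287). PTPN1 and GRIP1 likewise share 3.42% and 3.27% of their exons with a tested gene on the opposite strand.

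The remaining roles gave 3 calls. AKT1, a serine kinase that phosphorylates EPHA2, fell by 0.37 ± 0.10 (edgeR adjusted p = 0.0314), whereas RPS6KA1 had a log2 fold change of 0.10 ± 0.13. ROCK2, an effector of RhoA, fell by 0.46 ± 0.11 (edgeR adjusted p = 0.0207), as the only one of 8 small GTPases and actin regulators. VAV3, an exchange factor recruited by EPHA2, fell by 0.89 ± 0.26 (edgeR adjusted p = 0.0445), as the only one of 10 exchange factors and GTPase-activating proteins. SDCBP, PIK3R1 and GRIP1 passed whichever library was left out, and the other 9 called genes each lost the call without at least 1 library. CDC42 was listed with 5 to 29 counts and was not tested. It shares 2055 exonic bases, 57.1% of its exons, with a second gene on the same strand, so its level is uncertain in this table.

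**Figure D5:**
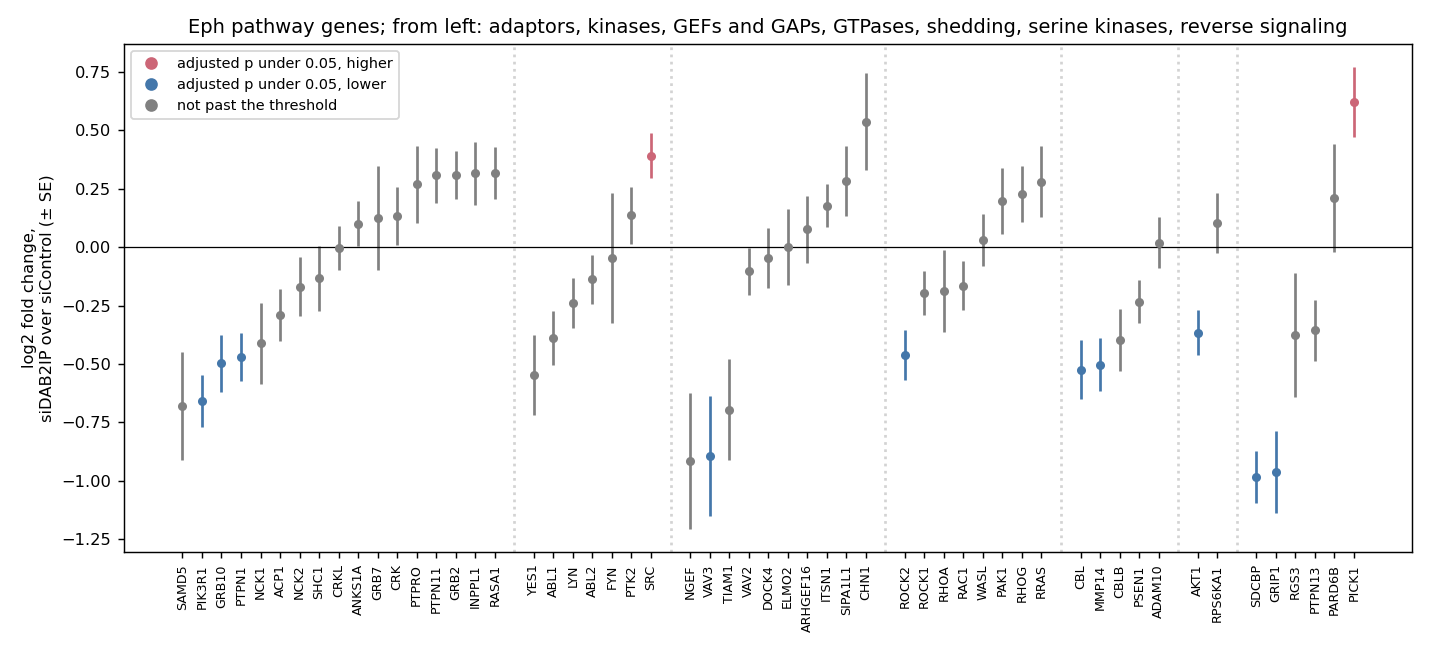
Log2 fold change ± SE, siDAB2IP over siControl, of the 55 tested Eph pathway genes, grouped by role between dotted lines. Red and blue points passed an adjusted p under 0.05 in the edgeR fit over all genes, 2 above 0 and 10 below 0, and grey points did not.

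The genes whose pattern over the 6 libraries was most like that of EPHA2 were sought among 12041 genes with a mean level of at least 1 FPKM. Likeness was measured by the root mean square difference of log2 CPM, centred on the mean of the 6 libraries. RASSF6 was nearest with a difference of 0.105, followed by ITGA5 (0.109), SULT1A1 (0.117), FICD (0.120) and AGPAT4 (0.121). ITGA5, the integrin α5 subunit of the fibronectin receptor, was the one of these with a high level, a mean of 127 FPKM, and the other 4 lay between 1.00 and 5.19 FPKM. SULT1A1 has near-identical copies, so its counts are uncertain.

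For EFNA1 the nearest gene was BCL6, a transcriptional repressor, with a difference of 0.0603. SH3RF2 (0.0958), GSDMC (0.1003), HIST2H2BE (0.103) and FOXD2-AS1 (0.104) followed. BCL6 had a log2 fold change of -0.99 ± 0.18, close to that of EFNA1. The 6 libraries fall into the 2 study groups, so this measure takes in the size of the difference between them.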

How the data were processed

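RNA-Seq libraries (Illumina NovaSeq, paired ends) of 3 siControl and 3 siDAB2IP MCF10A samples were analysed. The authors deposited raw read counts per gene and FPKM values, which divide counts by gene length and library total. The submitters' processing notes name STAR 2.6.1d, featureCounts 1.5.0-p3, DESeq2 1.20.0, edgeR 3.24.3 and hg38, and the strand setting is not given in the sources used here. Starts, ends and strands of all 58735 genes match GENCODE release 29, which gave the overlaps. Counts were tested here with edgeR 4.0.16 in R 4.3.3 (filterByExpr, TMM, quasi-likelihood test, Benjamini-Hochberg adjustment, threshold 0.05), and 15430 genes passed the filter. A design without the replicate number was the main one. Deviations of same-numbered libraries from their group means correlated at 0.26, 0.15 and 0.25 over genes, and those of other pairs at -0.28 to 0.02. Since deviations cancel within a group, the lower values of other pairs are no separate evidence. The libraries were treated as paired by number where a block was fitted, and this pairing was not tested. The labels do not say what a number shares.

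The members and lists were chosen with earlier results of these data known. Genes named are the 10 members, the other 12 family genes, DAB2IP, called genes of the Eph pathway list, genes overlapping a member in the annotation, and the 5 genes of nearest pattern to the most abundant receptor and ephrin. Genes of the list or the markers named beside these were picked after their values were seen. Alternatives were DESeq2 1.42.0, RLE factors, library size only, other filters, the block, limma 3.58.1 on log2(FPKM + pseudocount) of the deposited FPKM with a pseudocount of 1 or 0.1, and leaving out each library. The main test was tested on simulated data. Limits on a count of 0 use 3 counts and cover counting error only. Of the marker lists, 1 gene is not reported here.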

Additional observations from a re-analysis of the deposited data

How the results depend on the processing

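Of the 10 members, 1 was higher and 5 were lower. DESeq2, no filter on low counts and the replicate block each gave 2 higher, and the range was 1 to 2 when each library was left out, with 2 without siDAB2IP replicate 1. Members lower numbered 1 with limma on log2(FPKM + 1) without its filter on low FPKM, and 3 to 5 when each library was left out, with 3 without siControl replicate 2. Of the Eph pathway genes, 2 rose and 10 fell. With library size only 4 rose. With the replicate block 5 rose and 17 fell, and without a filter 17 fell. With limma without that filter 0 rose, 6 being higher at an unadjusted p under 0.05, and 2 fell. The ranges when each library was left out were 0 to 6 and 5 to 12. Shares over all genes were not counted for any of these alternatives, so their counts may follow a change in calls among all genes. Over the 15 alternatives EPHA2 ranged from 1.15 to 1.29 on the log2 scale and EPHB6 from -1.98 to -0.98, the latter with limma and a pseudocount of 1. These refit the values in view when the members were chosen and are no independent support. EPHA1 also passed without a filter, at -0.49, and EFNB2 with DESeq2, at 0.59, and without a filter, at 0.58. EPHB2, EPHB3, EFNA1, EFNA5 and EFNB3 lost the call with limma without that filter. Where the cause of these moves is not named it was not tested. EPHA4, never called, ranged from -0.07 to 0.77. With only the members in the sum, by construction, EFNA1 made up 69.0% of the ephrins in siControl and 48.8% in siDAB2IP. Low depth limits EPHA4, EPHB6 and the untested receptors, and 3 libraries a group limit all calls.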
